A study of Mus musculus with 3 samples.

Results

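Aminoacyl-tRNA synthetases join each amino acid to its tRNA, and so supply every ribosome with its building blocks. The cytosol and the mitochondrion both need charged tRNAs, and the enzymes that serve each are encoded in the nucleus. The genes described here are 35 fixed by name: 20 of cytosolic enzymes, 12 of mitochondrial enzymes, and 3 of the proteins Aimp1, Aimp2 and Eef1e1 (AIMP3), which hold several cytosolic enzymes together in the multisynthetase complex. They belong to 9678 genes with a named probe on mouse Illumina BeadArrays. A named probe was found for 30 of the 35 (18 cytosolic, 9 mitochondrial and 3 scaffold genes), by 55 probes in all. The other 5, Dars, Yars, Hars2, Nars2 and Yars2, had none and have no value here. Names were available only for probes in the authors' processed table, 17754 of 45281, so these 5 may have probes outside it. Mars is listed in the annotation as Mars1.

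Total RNA from 3 biological replicates of the mouse embryonic stem (ES) cell line OS25 was hybridised, 1 array per replicate, all labelled undifferentiated ES cells. The cells were of a single line, fed Glasgow medium, foetal calf serum, human leukaemia inhibitory factor and the selection drug hygromycin, and no agent, genotype or time point sets any replicate apart in the labels. With a single group the design holds no contrast between conditions and no test was possible, so detection, levels and differences between arrays are given as descriptions.

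The label was set against marker genes first. Of 12 naive ES cell markers 3 had a named probe, and Klf4 alone was above background on all 3 arrays. Klf4 was at 6.48, 8.08 and 7.86 (log2) on replicates 1, 2 and 3. Zfp42 was at 5.51, 5.10 and 5.29, and Tfcp2l1 at 5.12, 4.62 and 4.47. Of 12 fibroblast markers 9 had a named probe and 7 were above background (77.8%, against 82.2% of all named genes), and 5 of those 7 spanned over 2-fold between arrays, against 10.1% of all detected genes. On replicates 1, 2 and 3 Pdgfra was at 9.59, 6.07 and 5.84, and Thy1 at 6.81, 9.85 and 9.49 (log2), so not all went one way. Dcn, not above background on replicate 3, was at 12.28, 6.77 and 5.42. Vim was at 12.19, 13.43 and 13.40 and Col1a1 at 11.95, 11.99 and 11.76, while Col3a1 was not above background on all arrays. The markers measured did not settle whether the ES cell label holds, and the cells are called by that label only. The part of cell makeup in the values below was not tested, and in bulk RNA fewer cells of a type and less RNA per cell cannot be told apart. The core ES cell genes Pou5f1, Nanog, Sox2 and Esrrb had no named probe, so a gene without a probe and a silent gene cannot be told apart for them. Replicate 1 also stood apart: across 13777 probes above background on all arrays, replicates 2 and 3 correlated at 0.990 (Pearson's r, log2 intensity), but replicate 1 with replicate 2 at 0.949 and with replicate 3 at 0.951. Median unprocessed intensity was between 74.9 and 80.7, and between 14515 and 15865 of 45281 probes were above background on an array. The number of arrays limits the precision of every value below.

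Nearly all measured synthetase genes were transcribed at a level above the arrays' background. A probe counted as detected where its detection p, which sets it against negative control beads of the same array, was under 0.01 on all 3 arrays, and a gene where any of its probes did. This held for 28 of the 30 synthetase and scaffold genes with a named probe (93.3%, exact 95% binomial interval 77.9% to 99.2%), against 82.2% of all 9678 genes. By compartment it held for 17 of 18 cytosolic enzymes (94.4%, 72.7% to 99.9%), 8 of 9 mitochondrial enzymes (88.9%, 51.8% to 99.7%) and all 3 scaffold genes. The interval of the synthetase genes includes the value for all genes. Genes are not independent replicates, and gene names were available only for probes kept in the authors' processed table.

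Both genes that were not detected missed the threshold narrowly. Hars, the cytosolic histidyl-tRNA synthetase, had detection p of 0.00855, 0.0118 and 0.00641 on replicates 1, 2 and 3. Replicate 2 alone was over the threshold. Its single probe is annotated to a cDNA clone record rather than a curated transcript, which among the probes used for these genes was otherwise true only of Cars. Aars2, the mitochondrial alanyl-tRNA synthetase, had detection p of 0, 0.0278 and 0.00427, and again only replicate 2 was over 0.01. Without replicate 2 all 30 genes counted as detected.

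**Figure D1:**
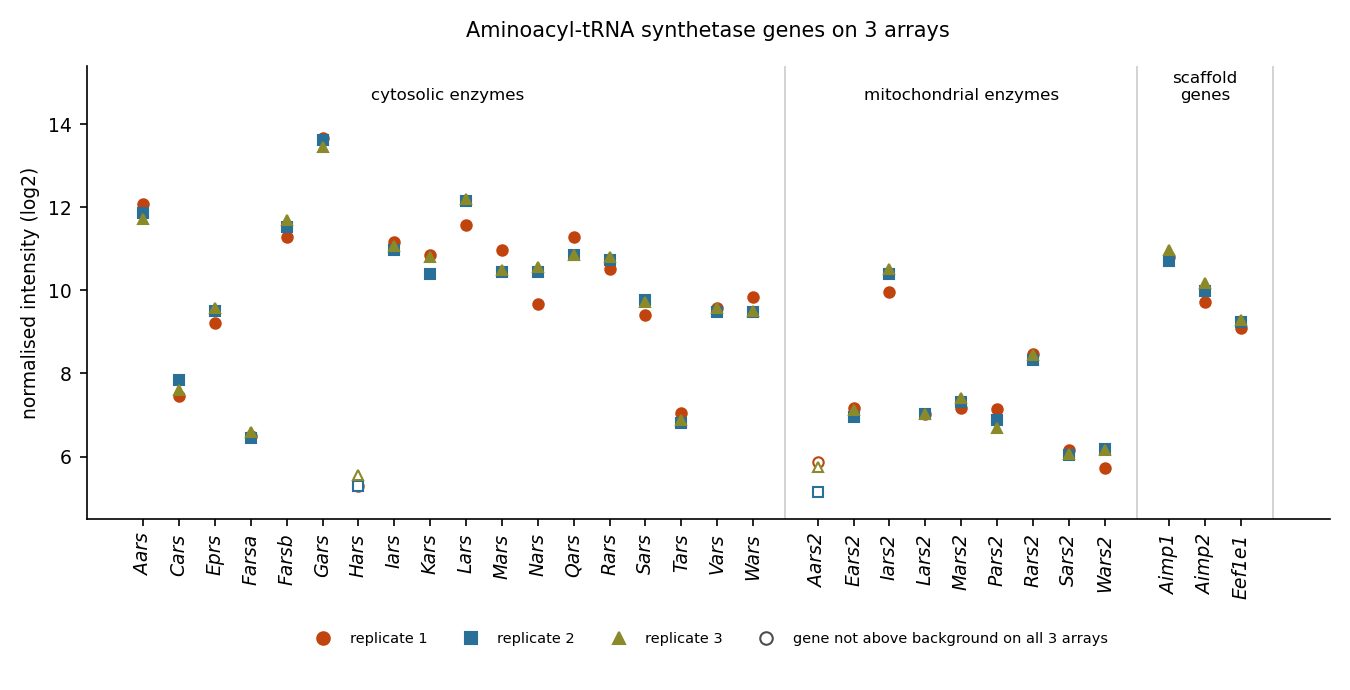
Normalised log2 intensity (vertical axis) of the 30 synthetase and scaffold genes with a named probe, 1 symbol per array, open where the gene was not above background on all 3 arrays. Gars is at 13.66, 13.61 and 13.45 and Hars at 5.30, 5.28 and 5.55; levels of different genes come from different probes and cannot be ranked, and what can be read is the spread of the 3 symbols within a gene.

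Levels are given as normalised log2 intensity of the gene's probe with the highest mean. Brightness also depends on the probe, so no gene's level is set against another's. The cytosolic enzymes fall into structural classes that differ in the fold of the catalytic domain. Among class I enzymes, Mars (methionine, which also charges the initiator tRNA) was at 10.98, 10.45 and 10.50 on replicates 1, 2 and 3. Qars (glutamine) was at 11.29, 10.85 and 10.85. In both genes replicate 1 was the highest array and replicates 2 and 3 lay within 0.1 of each other.

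Lars (leucine) was at 11.58, 12.16 and 12.21 on replicates 1, 2 and 3, with replicate 1 lowest. Its second probe showed the same, at 9.47, 10.22 and 10.30. Rars (arginine) was at 10.53, 10.74 and 10.79. Eprs, a single protein that charges both glutamate and proline tRNAs, was at 9.22, 9.50 and 9.57. Replicate 1 was thus the lowest array for these class I genes, although of the 2 other Eprs probes, 1 placed it between the others (6.89, 6.64 and 7.16). Iars (isoleucine) was at 11.17, 10.98 and 11.07, Vars (valine) at 9.58, 9.49 and 9.58, and Cars (cysteine) at 7.45, 7.85 and 7.60. Vars had a range of 0.09, the smallest of the detected cytosolic enzymes as processed here. Farsa spanned less with quantile normalisation alone, with the authors' values and with all probes averaged. Without normalisation between arrays Vars spanned 0.49 and was not the smallest.

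Among class II enzymes, Nars (asparagine) was at 9.67, 10.44 and 10.57, lowest on replicate 1. Its range of 0.90, or 1.87-fold, was the widest of the 28 detected genes with normalised arrays, and rests on a single probe. Aars (alanine) was at 12.08, 11.86 and 11.71, Gars (glycine, serving both compartments) at 13.66, 13.61 and 13.45, and Kars (lysine, likewise serving both) at 10.85, 10.40 and 10.80. Replicate 1 was the highest array for these, by only 0.04 over the next array in Gars and 0.05 in Kars. Tars (threonine) was at 7.06, 6.82 and 6.89, and Sars (serine) at 9.42, 9.77 and 9.71. Farsa and Farsb encode the 2 subunits of the phenylalanine enzyme: Farsa was at 6.48, 6.46 and 6.58, and Farsb at 11.29, 11.52 and 11.68. Both subunits were highest on replicate 3, Farsa on replicate 1 without normalisation between arrays.

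Of the detected mitochondrial enzymes, Iars2 (isoleucine) had the widest range with normalised arrays (without normalisation it was Pars2), at 9.97, 10.40 and 10.51 on replicates 1, 2 and 3, and its second probe followed (8.94, 9.42 and 9.51). Wars2 (tryptophan) was at 5.72, 6.19 and 6.15. Replicate 1 was lowest for both. Pars2 (proline) was at 7.15, 6.89 and 6.70, with replicate 1 highest, and a second detected probe gave 6.59, 6.09 and 5.88. The other 5 detected enzymes had narrower ranges. Mars2 (methionine) was at 7.17, 7.31 and 7.41, Ears2 (glutamate) at 7.16, 6.96 and 7.11, and Rars2 (arginine) at 8.47, 8.33 and 8.43. Sars2 (serine) was at 6.15, 6.04 and 6.06, and Lars2 (leucine) at 7.02, 7.03 and 7.03. Lars2 had the smallest range of the 28 genes, 0.01, although without normalisation between arrays it spanned 0.54. The scaffold genes were at 10.81, 10.71 and 10.97 (Aimp1), 9.71, 9.98 and 10.17 (Aimp2) and 9.10, 9.24 and 9.29 (Eef1e1), each highest on replicate 3, but on replicate 1 without normalisation between arrays.

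None of the 28 detected genes spanned over 2-fold between its highest and lowest array, against 10.1% of the 7955 detected genes in all. The median SD over arrays was 0.19 log2 units for cytosolic enzymes and 0.11 for mitochondrial enzymes, against 0.21 for all detected genes (n = 3 arrays each). Whether these medians differ was not tested, and the order of cytosolic enzymes and all genes turned with the authors' values (0.177 and 0.168) and with quantile normalisation alone (0.176 and 0.171). Without replicate 1 the medians were 0.08, 0.07 and 0.10. In 20 of the 28 genes (71.4%) it was replicate 1 that lay farthest from the middle of the 3 values, as in 63.7% of all detected genes.

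**Figure D2:**
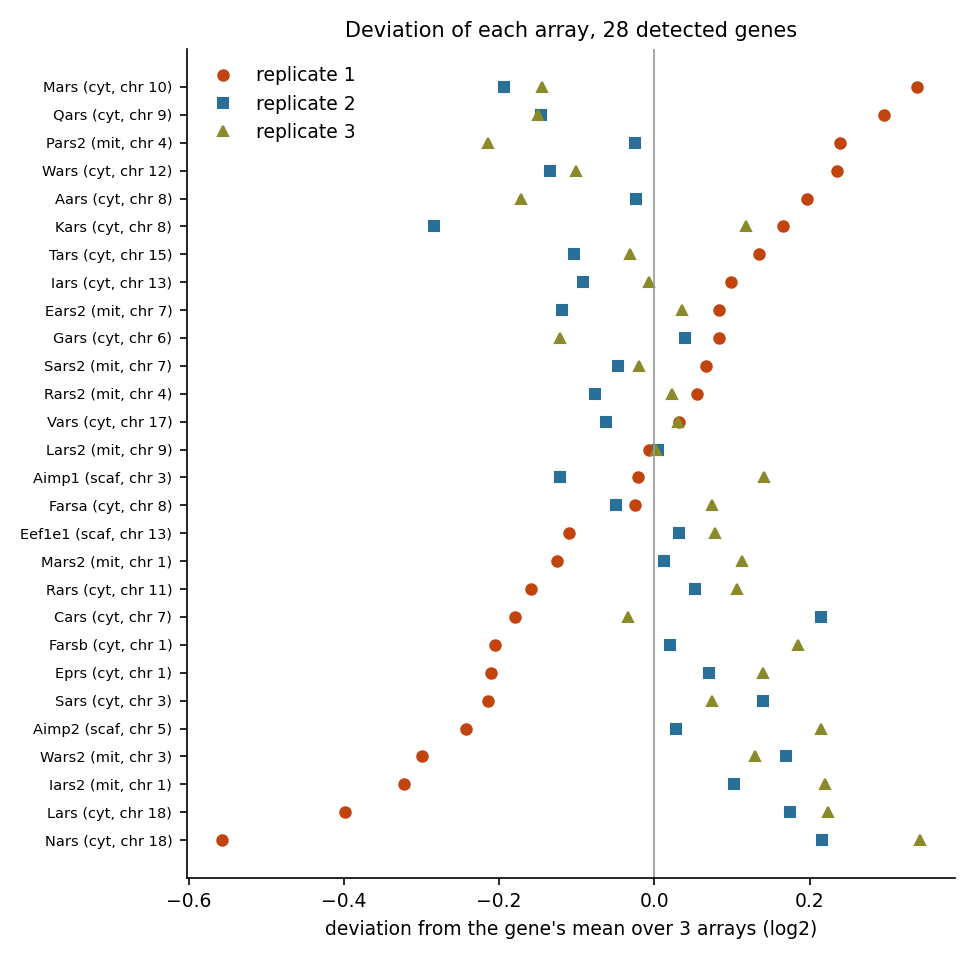
Deviation of each array from the gene's own mean over 3 arrays (horizontal axis, log2), for the 28 detected genes, sorted by replicate 1, with compartment (cyt, mit, scaf for scaffold) and chromosome beside each name. Replicate 1 runs from -0.56 in Nars to 0.34 in Mars; without normalisation between arrays, replicate 1 was no longer the lowest in 9 of the 13 genes in which it is lowest here.

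The highest array was replicate 1 in 13 genes, and the lowest was replicate 1 in another 13, or 46.4% each, against 43.3% and 43.4% of all detected genes, which is near the background. Among cytosolic enzymes it was highest in 9 and lowest in 7 of 17, and among mitochondrial enzymes highest in 4 and lowest in 4 of 8. Among the scaffold genes it was highest in none and lowest in 2 of 3. Median deviations on replicates 1, 2 and 3 were 0.03, -0.02 and 0.03 for cytosolic enzymes and 0.02, -0.01 and 0.03 for mitochondrial enzymes. The 3 scaffold genes had -0.11, 0.03 and 0.14. All detected genes had medians within 0.01 of 0 on each array. The place of replicate 1 was kept in 26 of the 28 genes under the other 5 settings that normalised the arrays, the exceptions being Kars and Vars with all probes averaged. The setting without a filter on dim probes could not change the place, since it left the values of these genes as they were. The other settings share steps and are not independent. Without normalisation between arrays, when all detected genes stood at 0.26, -0.04 and -0.22, replicate 1 ceased to be the lowest array in 9 genes (Cars, Eprs, Rars, Sars, Lars2, Mars2, Wars2, Aimp2 and Eef1e1). With those values only centred on the median of all genes, 25 of the 28 kept the place, and Gars (then lowest), Kars and Lars2 did not.

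Members of the multisynthetase complex did not all go one way. Of its 10 detected genes, replicate 1 was highest in 4 (Iars, Kars, Mars and Qars), lowest in 5 (Eprs, Lars, Rars, Aimp2 and Eef1e1, of which only Lars without normalisation between arrays) and between the others in Aimp1. Cytosolic enzymes outside the complex had it highest in 5 and lowest in 4 of 10. Among all detected genes it was highest in 43.3% and lowest in 43.4%, so both splits were near the background. Mars and Lars, both in the complex, differed most: Mars stood at 0.34 and Lars at -0.40 on replicate 1. Lars stayed lowest on that array, and Mars highest, under every setting that kept 3 arrays.

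With normalised arrays the widest ranges among the 28 detected genes were those of Nars and Lars, and both genes lie on chromosome 18. Without normalisation between arrays Pars2 (1.00), Mars (0.91) and Qars (0.84), among others, spanned more than Nars (0.48) and Lars (0.39). Chromosome 18 had the lowest median deviation on replicate 1 of chromosomes 1 to 19 and X. Its 187 detected genes stood at -0.39, 0.18 and 0.19 on replicates 1, 2 and 3, and replicate 1 was the lowest array in 155 of them, against 43.4% of all detected genes. Nars deviated by -0.56, 0.22 and 0.34 and Lars by -0.40, 0.17 and 0.22. The X chromosome came next (-0.26 on replicate 1, 230 genes), and then chromosome 3 (-0.21, 384 genes). Without normalisation between arrays all detected genes stood at 0.26, -0.04 and -0.22, and the chromosome 18 medians were -0.12, 0.14 and -0.03. Nars then stood at -0.31 and Lars at -0.23 on replicate 1, still lowest there. These values were singled out after they were seen, and the part of the chromosome in the deviation of Nars and Lars was not tested. Hars, the third measured gene of the family on chromosome 18, was not detected and did not show that order.

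**Figure D3:**
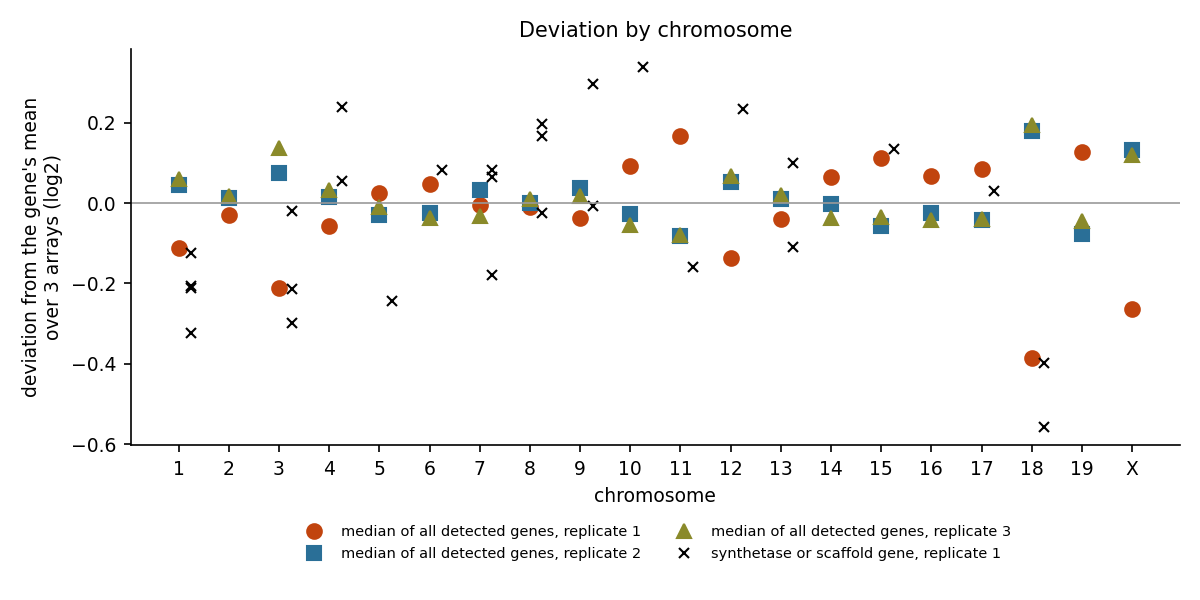
Median deviation of all detected genes of a chromosome from their mean over 3 arrays (vertical axis, log2), by array, with the replicate 1 deviations of the synthetase and scaffold genes as crosses. On chromosome 18 replicate 1 sits at -0.39 and replicates 2 and 3 at 0.18 and 0.19. The crosses there are Lars (-0.40) and Nars (-0.56). Without normalisation between arrays the chromosome 18 median on replicate 1 was -0.12, against 0.26 for all detected genes.

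Genes of the family on chromosome 1 also had one direction on replicate 1. Eprs, Farsb, Iars2 and Mars2 deviated by between -0.32 and -0.12, and replicate 1 was the lowest array in all 4, with Eprs and Mars2 no longer lowest without normalisation between arrays. The median of the 389 detected genes of chromosome 1 was -0.11, and replicate 1 was lowest in 220 of them (56.6%). On chromosome 3, Sars and Wars2 were lowest on replicate 1 (again not so without normalisation) and in Aimp1 it was between the others. Replicate 1 was lowest in 70.8% of the 384 detected genes of that chromosome. On chromosome 8 replicate 1 was highest in Aars and Kars (between the others in Kars with all its probes averaged). In Farsa it was between the others. The chromosome's median was -0.01, and 40.5% of its detected genes were highest on replicate 1. On chromosome 7 replicate 1 was highest in Ears2 and Sars2 and lowest in Cars (between the others without normalisation). It was highest in 42.4% and lowest in 41.3% of that chromosome's detected genes. On chromosome 4 replicate 1 was highest in Pars2 and Rars2. The median of that chromosome was -0.06, and 51.4% of its detected genes were lowest on replicate 1.

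Wars charges tryptophan tRNA, and in human cells its gene is known to be induced by interferon-gamma. Its brightest probe was at 9.84, 9.47 and 9.50 on the 3 arrays in order of their numbers. Its 3 other probes gave 8.32, 7.89 and 7.99, and 7.09, 6.34 and 6.70, and the dimmest probe gave 6.80 on replicate 1 and 6.64 on replicate 3, with replicate 2 lower than replicate 1 by 0.81. All 4 probes read highest on replicate 1, then replicate 3, then replicate 2. Without normalisation between arrays the brightest probe kept replicate 1 highest but had replicate 3 lowest (10.09, 9.40 and 9.26). With normalised arrays all 13 detected interferon-induced genes had the order of the normalised Wars probes, over ranges between 0.26 in Cxcl10 and 4.91 in Igtp. In unprocessed intensity Cxcl10 was lowest on replicate 3 (180, 139 and 131 on replicates 1, 2 and 3), and the others of the list kept the order. The GTPase gene Igtp was at 12.55, 7.64 and 10.98, and the transcription factor gene Irf1 at 12.44, 10.13 and 11.61. The same order held for 6 of 17 cytosolic enzymes (Iars, Kars, Mars, Tars, Wars and Vars, the last with replicates 1 and 3 level at 9.58), 3 of 8 mitochondrial enzymes and 19.1% of all detected genes. The range of Wars was 0.37 with the brightest probe and 0.81 with the dimmest. Whether the interferon-induced genes have a part in the order of Wars was not tested.

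**Figure D4:**
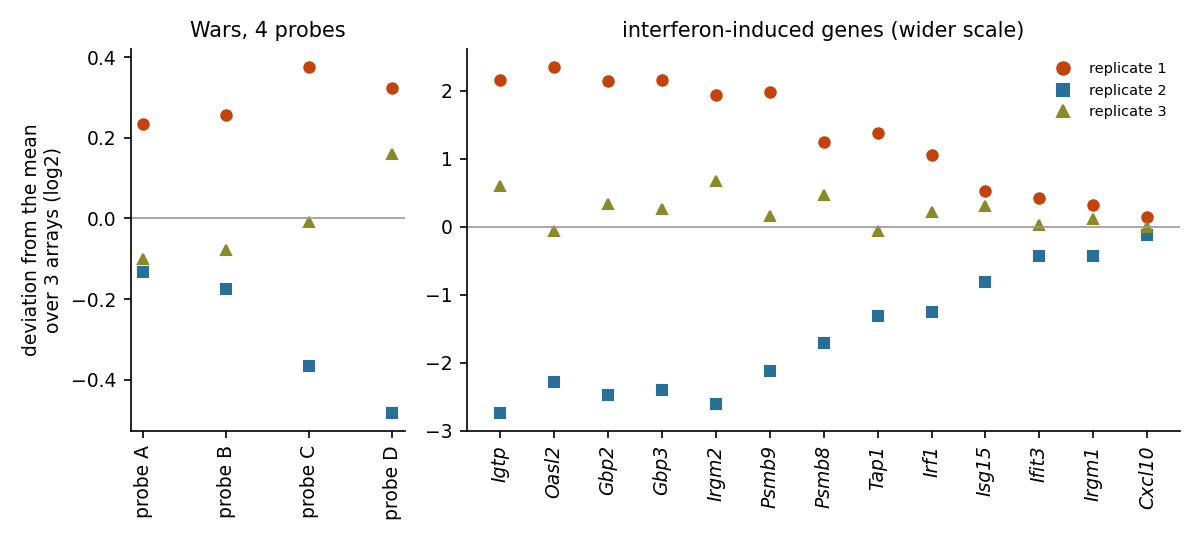
Deviation from the mean over 3 arrays (vertical axes, log2, on different scales) of the 4 Wars probes, brightest first (left), and of 13 interferon-induced genes, widest range first (right), with 1 symbol per array. With normalised arrays, each Wars probe and each of the genes has replicate 1 highest and replicate 2 lowest, over at most 0.81 in Wars and 4.91 in Igtp.

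Cells that run short of an amino acid accumulate uncharged tRNA, which the kinase GCN2 senses; translation of the transcription factor ATF4 then goes up, and ATF4 acts on genes of amino acid supply, several cytosolic synthetase genes among them. ATF4 binds, with a C/EBP partner, a composite element. Promoter sequences (RefSeq, GRCm38.p6, 250 bases before to 50 after the gene start) were found for 26 of the 35 genes, and Cars, Hars, Lars, Nars, Rars, Vars, Wars, Hars2 and Pars2 were not matched. The letters TGATGNAA, searched on both strands, were found for 5 of the 26: Aars, Gars, Iars, Tars and Yars. All 5 are among the 13 cytosolic enzymes with a promoter, and none among 10 mitochondrial enzymes or 3 scaffold genes. Of all 27025 genes with a promoter, 4.51% had a match. With a further T, as TGATGNAAT, which contains the shorter motif, Aars, Gars and Iars matched, and 1.08% of all genes. A match describes letters and does not show binding.

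The matches are printed because they are shared by enzymes of this family and by Asns, asparagine synthetase, a known target of ATF4. Each stretch runs 5′ to 3′ on the gene's strand, and capitals mark the match. The Aars stretch (chr8:111033704-111033763, + strand) has its match at -112 to -105 from the gene start, and the Gars stretch (chr6:55037941-55038000, + strand) at -30 to -23. In Tars (chr15:11399659-11399718, - strand) it lies at -15 to -8. In Iars (chr13:49682126-49682155, + strand) and Yars (chr4:129189895-129189924, + strand) it begins at base 8 and base 4 of the gene. The Asns match (chr6:7693210-7693269, - strand) is at -23 to -16.
Aars: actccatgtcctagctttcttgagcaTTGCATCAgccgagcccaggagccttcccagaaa
Gars: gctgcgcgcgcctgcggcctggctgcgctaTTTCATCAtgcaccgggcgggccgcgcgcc
Tars: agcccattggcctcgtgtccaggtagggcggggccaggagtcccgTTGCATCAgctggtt
Iars: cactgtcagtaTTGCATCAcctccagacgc
Yars: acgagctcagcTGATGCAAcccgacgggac
Asns: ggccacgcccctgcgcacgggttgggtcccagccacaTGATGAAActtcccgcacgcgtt
Yars and Asns have the letters on the gene's own strand, and the other 4 on the opposite strand. Aars has a second match, at bases 10 to 17 of the gene (chr8:111033840-111033869), in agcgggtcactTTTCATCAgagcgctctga.

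The 4 matched synthetase genes with a value, Aars, Gars, Iars and Tars, each read highest on replicate 1 (Gars lowest with arrays only centred), with ranges of 0.37, 0.21, 0.19 and 0.24; replicate 1 was highest in 43.3% of all detected genes. Asns was at 12.24, 11.75 and 11.61 on replicates 1, 2 and 3, and Atf4 itself at 11.73, 11.40 and 11.26. Mars and Qars, whose promoters had no match, were also highest on that array. The ATF4 response genes as a list went both ways. Of 23 with a named probe 21 were detected, and replicate 1 was highest in 6 and lowest in 8 of them, or 28.6% and 38.1%, against 43.3% and 43.4% of all detected genes. The 6 were Atf4, Asns, Trib3, Shmt2, Atf3 and Slc1a4, and the median deviation of the list on replicate 1 was -0.06. Atf5, a related factor, was at 7.75, 9.23 and 8.77, the growth inhibitor gene Ddit4 at 8.25, 9.47 and 8.80, and Sesn2, which encodes a leucine sensor, at 5.37, 6.53 and 6.18. Those 3 were the detected genes of the list that spanned over 2-fold (14.3%, against 10.1% of all detected genes), and all were lowest on replicate 1. Sesn2 was near background on that array (detection p 0.00534), and only 1 of its 2 probes was detected. The stress factor gene Ddit3 was at 9.74, 10.36 and 10.05 and Chac1, which encodes a glutathione-degrading enzyme, at 10.44, 10.74 and 10.38.

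Synthetase genes outside the 35 were also transcribed, where 82.2% of all named genes were detected. The 5 with a named probe were all detected: Cars2 (7.50, 7.77 and 7.74 on replicates 1, 2 and 3), Fars2 (9.73, 9.33 and 9.29), Tars2 (7.61, 7.43 and 7.73) and Vars2 (8.68, 8.48 and 8.21), all mitochondrial enzymes, and Tarsl2, a second threonyl-tRNA synthetase (5.87, 6.88 and 6.74). Tarsl2 was lowest on replicate 1 with a range of 1.01, wider than in any of the 28 genes as normalised here. Its probe was dim, with unprocessed intensities of 127, 170 and 142 on replicates 1, 2 and 3, so this range is less certain.

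Genes on either side of the synthetases in the path to the ribosome varied in different degrees. Of 15 tRNA maturation genes with a probe 14 were detected (93.3%, against 82.2% of all named genes). Trnt1, which adds the CCA end that receives the amino acid, was at 9.56, 9.59 and 9.54, and Nsun2, a tRNA methyltransferase gene, at 7.05, 7.69 and 8.08. Nsun2 was the only gene of this list that spanned over 2-fold (7.1%, against 10.1% of all detected genes). All 8 cytosolic elongation genes were detected, with a median SD of 0.08, against 0.21 for all detected genes (n = 3 arrays). Eef1a1, which carries charged tRNA to the ribosome, was at 14.39, 14.39 and 14.43. All 7 mitochondrial elongation and release genes with a probe were detected too, and Tufm, the mitochondrial counterpart of Eef1a1, was at 10.83, 10.79 and 10.83. Of the tRNA editing and tRNA-dependent enzymes 8 of 9 were detected (88.9%, again against 82.2%). Gatc was at 10.11, 10.01 and 10.09 and Gatb at 5.62, 6.11 and 6.26, both of the complex that makes glutaminyl-tRNA in mitochondria. The genes that sense uncharged tRNA had no named probe for GCN2 itself (Eif2ak4); Impact, whose product restrains GCN2, was at 9.04, 10.46 and 10.24 and lies on chromosome 18 with Nars and Lars. Impact too was lowest on replicate 1, as were 82.9% of the 187 detected genes of that chromosome.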

How the data were processed

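Per the file headers, the deposited unprocessed table holds a detection p-value and a summary intensity for each probe and was deposited as not normalised. The authors' processed table holds log2 intensities of 17754 of 45281 probes; its columns are equal after sorting, as after quantile normalisation. Limma is named in the submitters' processing notes; its version and the probe filter are not stated there. Genes were named for 15045 processed-table probes from GEO's platform annotation, updated by Entrez identifier (RefSeq, GRCm38.p6); 2709 had no single gene.

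Levels came from the unprocessed table by neqc in limma 3.58.1 (R 4.3.3): normexp correction from detection p-values, offset of 16, quantile normalisation and log2. The probe with the highest mean stood for a gene. Intervals are exact 95% Clopper-Pearson and cover counting error only. No p-value was computed: 1 group of 3 arrays holds no contrast, and nothing in the labels says more of the replicates than that they are biological. The members and gene lists were chosen with earlier results of these data known. All members are named; of other lists, all where 12 or fewer were measured could be, otherwise the first detected and those of widest range; Atf4, Asns and Impact stand under that rule, and Cxcl10, Trib3, Shmt2, Atf3 and Slc1a4 were named after their values were seen. Alternatives covered detection threshold, probe choice, background and normalisation, the authors' values and each replicate left out; leaving out chromosome 18 genes was added after seeing the data. Steps were tested on simulated arrays. Python 3.11.15, pandas 2.3.3, numpy 2.4.6, scipy 1.17.1 and matplotlib 3.10.9 were used.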

Additional observations from a re-analysis of the deposited data

How the results depend on the processing

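Of 110 recomputed values, 99 stayed in direction and within 1.5-fold (counts, SDs) or 1 SD (deviations), 6 moved and 5 changed sign. Some of the 99 could not have moved. With 28 of 30 genes detected, a looser threshold or a replicate left out could not raise the count by 1.5-fold. The tally is therefore no measure of stability. Detected genes ranged from 25 (every probe of a gene required) to 30 (p under 0.05, at least 1 array, or without replicate 2). Without normalisation between arrays, 1 gene (Pars2) spanned over 2-fold, the median deviations of cytosolic enzymes were 0.27 on replicate 1 and -0.19 on replicate 3, those of mitochondrial enzymes 0.31 and -0.21, and the median SD of mitochondrial enzymes was 0.28; all detected genes stood at 0.26 on replicate 1 and -0.22 on replicate 3. Leaving out 1 replicate in turn gave a median SD of 0.0770 to 0.198 for cytosolic and 0.0704 to 0.120 for mitochondrial enzymes, the lowest values both without replicate 1. It gave median deviations of -0.0247 to 0.0222 for cytosolic enzymes on replicate 1 and -0.0159 to 0.0317 for mitochondrial enzymes on replicate 3, the negative values both without replicate 2. Without the chromosome 18 genes the cytosolic median on replicate 3 was -0.0068. Such medians near 0 have no settled sign. The causes were not tested. No paired analysis was possible because the series has 1 group. Dim probes near background, such as those of Hars and Aars2, have the least certain values.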
